A study of Mus musculus with 20 samples.

Results

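The genes described are 10 regulators of oxidative metabolism, named by symbol: the coactivators Ppargc1a and Ppargc1b, the estrogen-related receptors (ERR) Esrra, Esrrb and Esrrg, the peroxisome proliferator-activated receptors (PPAR) Ppara, Ppard and Pparg, and the mitochondrial biogenesis factors Tfam and Nrf1. They were taken from the 54532 genes listed in the deposited count tables, and all 10 were found there. The data are RNA-seq libraries of plantaris muscle from male C57BL/6J mice of 5 months, collected 10 days after surgery. Mice had either sham surgery or mechanical overload (MOV), in which part of the gastrocnemius and soleus, the synergists of the plantaris, was removed from both hindlimbs to load the plantaris. At surgery the left plantaris received a lentivirus carrying a scrambled control and the right plantaris one carrying a miR-1a-3p mimic, so all 20 muscles were injected and none was free of virus. This gave the groups sham control and sham mimic in muscle of normal load and MOV control and MOV mimic in overloaded muscle, with 5 libraries each. Both viruses used a CMV promoter, which is not restricted to muscle fibers, and a TurboGFP reporter, and not every fiber of an injected muscle takes up virus. Levels of the mature miRNA were not analysed here. Each mouse thus gave a muscle to both virus groups of its surgery, but equal replicate numbers are not stated to mark one mouse.

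PGC-1α and PGC-1β, the products of Ppargc1a and Ppargc1b, do not bind DNA themselves. They dock on nuclear receptors such as the ERRs and PPARs and on NRF1, and raise transcription of genes for fatty acid oxidation, the citric acid cycle and the respiratory chain. NRF1 in turn activates nuclear genes for mitochondrial proteins, among them TFAM, which packages mitochondrial DNA and starts its transcription. In skeletal muscle PGC-1α is known for its induction by endurance exercise and for its higher level in oxidative fibers.

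The promoters of several of these genes carry the letters of motifs that other members of the group, or their partners, are known to bind. RefSeq promoter windows of GRCm38.p6, each from 250 bases before to 50 bases after a transcription start, were found for 9 of the 10 genes, as 16 windows. Ppargc1b had no entry. The core of the NRF1 motif, CGCANGCG, was found on either strand in windows of 3 genes (Nrf1 itself, Ppara and Esrra), and 8.21% of all 32851 windows held it. The ETS and GABPA letters ACCGGAAG were found in a window of Tfam and in 2.3% of all windows. The ERR recognition letters AAGGTCA (4.72% of all windows) and the cAMP response element TGACGTCA (1.79%) were not found in any of the 16. The 6 matches are shown because they are the places where the group's own promoters hold letters known for NRF1 or GABPA. Each is written 5′ to 3′ on the strand of the gene, with 11 bases on both sides and the matched letters in capitals.
Nrf1, chr6:30047945-30047974, plus strand: gagccgtgcgtCGCGTGCGtgcctcctccc
Ppara, chr15:85735614-85735643, plus strand: ccctgcggaccCGCAGGCGgagtgcagcct
Ppara, chr15:85735735-85735764, plus strand: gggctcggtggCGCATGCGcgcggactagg
Esrra, chr19:6921930-6921959, minus strand: acaggaggccgCGCACGCGtgtgtatcgac
Esrra, chr19:6921885-6921914, minus strand: tcctccgggtaCGCAGGCGccgccgcctcc
Tfam, chr10:71238074-71238103, minus strand: tcctgccgcggACCGGAAGtccgggcttcc
Measured from the start site, the first matched letter was at -32 in Nrf1, at -151 and -30 in Ppara, at -140 and -95 in Esrra and at -48 in Tfam. A match of letters describes the window and does not show that a factor is bound there.

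Total counts ran from 12036360 to 23056525 per library, with a median of 16940547.5. Levels are given as CPM (counts scaled to a common library size with edgeR's TMM factors). All 12 muscle fiber markers listed had counts in every group, and their summed level was between 85562 and 230188 CPM. Libraries sham control 1, sham mimic 1 and MOV mimic 4 lay farthest out on the first principal component, which held 25.3% of the variance. Leaving out these 3 removed only sham control 1 from MOV control against sham control. From MOV mimic against MOV control it removed only MOV mimic 4. A GC index was also taken per library, as the mean log2 deviation of the fifth of genes richest in G and C less that of the fifth poorest, without the 10 regulators. It was lowest in 4 libraries, 1 in each group (replicate 5 of sham control, MOV control and MOV mimic, and replicate 3 of sham mimic), with values from -0.35 to -0.18 against -0.16 to 0.28 in the other 16. The results that move most with these 7 libraries are given with and without them.

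All 10 regulators passed the filter on low counts in every comparison, and their levels spread widely. Esrra had the most reads, between 857 and 2059 counts per library, and Pparg the fewest, between 0 and 89. Per kilobase of merged exon, Esrra (ERRα, the ERR most tied to PGC-1α in muscle) had the highest level in sham control, at 41.9 ± 9.45 CPM per kb (SD, n = 5). Tfam was next at 11.2 ± 2.17 CPM per kb and then Esrrg at 6.68 ± 1.22 CPM per kb. Esrra was above Tfam in all 20 libraries, and Tfam above Esrrg in 19 of 20. Ppard followed at 5.88 ± 1.15 CPM per kb and Ppargc1a at 5.277 ± 1.298 CPM per kb. Esrrg, Ppard and Ppargc1a formed a band in which neighbors overlapped, since Esrrg exceeded Ppard in 14 of 20 libraries and Ppard exceeded Ppargc1a in 15 of 20. Ppargc1b was lower in sham control, at 2.40 ± 0.85 CPM per kb, and did not overlap Ppargc1a there. The lowest band held Pparg at 1.88 ± 0.58, Nrf1 at 1.69 ± 0.27, Esrrb at 1.49 ± 0.48 and Ppara at 1.43 ± 0.70 CPM per kb. Neighbors within this band overlapped in range, and the order of its 4 genes differed between groups, while the order of the 6 genes above them was the same in all 4 group means. The lengths come from an older gene annotation (GENCODE vM1) than the counts, so the levels per kb are approximate.

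**Figure D1:**
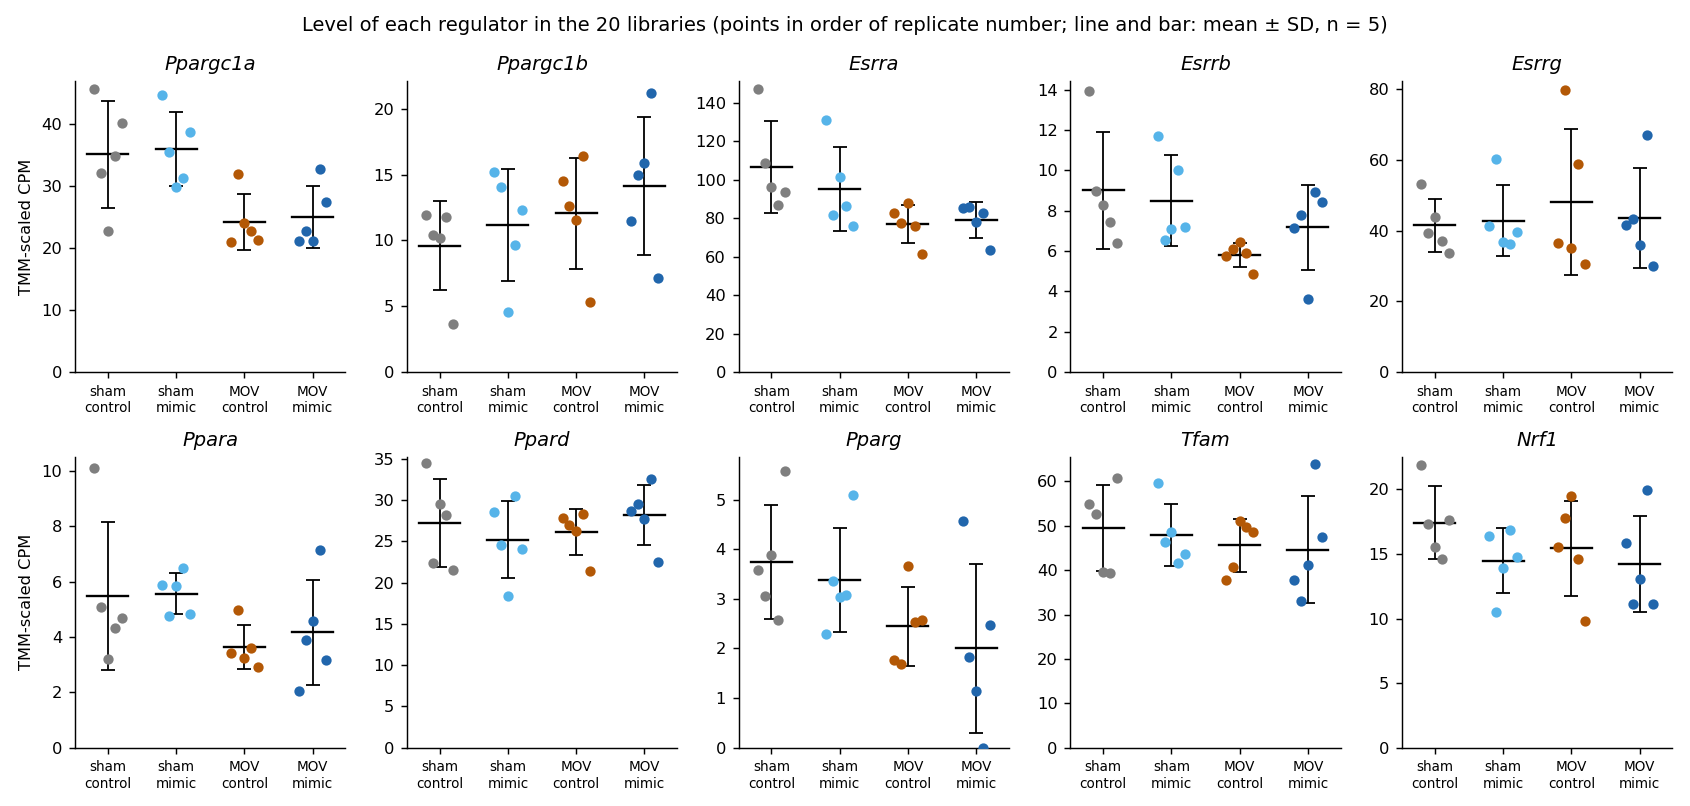
Level of the 10 regulators in each of the 20 libraries, 1 panel a gene. The y axis is TMM-scaled CPM from 0, the x axis the 4 groups, each point a library in order of replicate number, and the line and bar the mean ± SD of 5 libraries. Ppargc1a, Esrra and Esrrb had lower means in MOV control than in sham control with overlapping points, while Ppargc1b, Esrrg, Ppard, Tfam and Nrf1 overlapped broadly.

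The first comparison asked how overload changed the regulators in muscles with the control virus. None of the 10 passed the threshold of an adjusted p under 0.05 in MOV control against sham control by edgeR's quasi-likelihood test, nor by DESeq2 or by limma voom with quality weights. The background was as low for edgeR, which called 1 gene of 14974 (0.00668%), Nos1, with a log2 fold change of -1.70 ± 0.22 (SE) and an adjusted p of 0.0461. DESeq2 called 6.1% of the same genes. At an unadjusted p under 0.05, 3 of the 10 regulators (Ppargc1a, Esrra and Esrrb) were past the line, where 18.2% of all genes were. The log2 fold change was below 0 for 8 of the 10 and its median was -0.31, beside 0.04 over all genes tested. In bulk muscle, fewer cells of a type and less RNA per cell cannot be told apart.

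The same question was asked of muscles with the mimic virus. None of the 10 passed in MOV mimic against sham mimic by edgeR, DESeq2 or limma voom, where edgeR called 0% and DESeq2 1.48% of 14918 genes. Only Ppargc1a was past an unadjusted p of 0.05, against 13.4% of all genes. The log2 fold change was below 0 for 7 of the 10, with a median of -0.16 beside 0.02 over all genes. No group of 5 libraries was free of overlap with the group it was compared with for any regulator, in any of the 40 comparisons made. In CPM, 4 of these 40 had an unadjusted p under 0.05 by a two-sided exact permutation test over all divisions of the 10 libraries, the smallest possible p being 0.00794. They were Ppargc1a, Esrra and Esrrb of the 10 in control muscles, where 17.1% of all genes were past the same line, and Ppargc1a in mimic muscles, where 12.9% were. In the mimic comparisons none was, beside 4.64% of all genes in MOV and 2.37% in sham muscles.

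**Figure D2:**
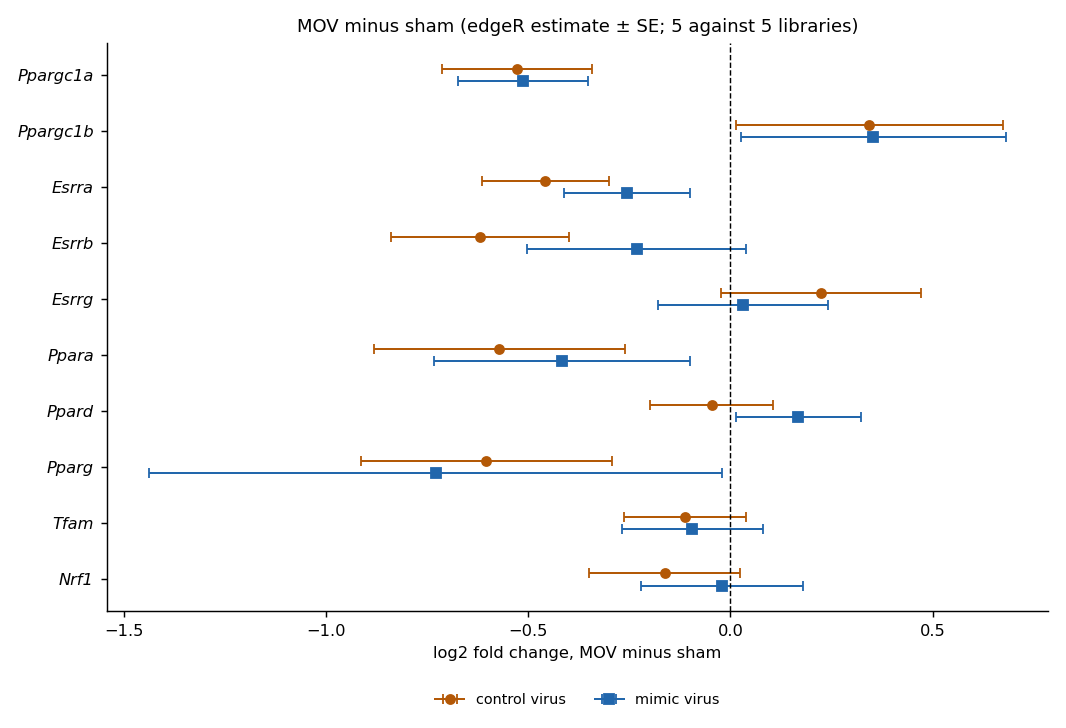
Log2 fold change of each regulator, MOV minus sham, with the control virus (circles) and the mimic virus (squares). Bars are standard errors from edgeR, 5 against 5 libraries, and the dashed line marks no change. Ppargc1a lay near -0.5 with either virus, whereas Pparg had the widest error, 0.71 in mimic muscles.

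Ppargc1a was the only regulator past an unadjusted p of 0.05 with both viruses. Its level in sham control was 45.6, 32.1, 22.7, 34.8 and 40.0 CPM in replicates 1 to 5. In MOV control it was 20.9, 31.8, 24.04, 22.7 and 21.2 CPM. The MOV control libraries were mostly low, with 3 of 5 below every sham control library, but replicate 2 stood up among the sham values and sham control 3 down among the MOV values. In sham mimic it was 44.6, 35.4, 29.9, 31.2 and 38.7 CPM. In MOV mimic it was 21.1, 22.7, 21.1, 32.7 and 27.4 CPM. Here 4 of 5 MOV mimic libraries were below every sham mimic library and MOV mimic 4 was not. The log2 fold change was -0.53 ± 0.19 (SE) in control muscles, with an adjusted p of 0.161 in edgeR and 0.0954 in DESeq2. In mimic muscles it was -0.51 ± 0.16, with adjusted p values of 0.285 and 0.129. The exact permutation p values, not adjusted, were 0.0317 and 0.0238. The smallest adjusted p that any regulator reached in any of the 124 fits was Ppargc1a's in control muscles without sham control 3, 0.055 in edgeR at a log2 fold change of -0.65. Without the 3 libraries farthest out it was -0.42 in control and -0.54 in mimic muscles, and without the 4 libraries of lowest GC index -0.43 and -0.62. Over all 22 alternatives to the main fit the log2 fold change ran from -0.65 to -0.34 in control and from -0.62 to -0.29 in mimic muscles.

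Ppargc1b, the PGC-1β gene, did not share this direction. In RefSeq its locus also holds the miR-378a hairpin and overlaps 2 lncRNA genes. Its levels were 11.9, 10.4, 10.2, 11.8 and 3.68 CPM in sham control, and 14.5, 12.6, 11.5, 16.4 and 5.29 CPM in MOV control. In sham mimic they were 15.2, 14.1, 4.52, 9.62 and 12.3 CPM, and in MOV mimic 11.5, 14.9, 15.9, 21.2 and 7.16 CPM. In each group 1 library stood well below the rest, and groups otherwise overlapped. Ppargc1b's log2 fold change was 0.34 ± 0.33 in control and 0.35 ± 0.33 in mimic muscles, with edgeR adjusted p values of 0.622 and 0.658. With 1 library left out it was 0.13 (without sham control 5) to 0.53 (without MOV control 5) in control muscles, and 0.15 (without sham mimic 3) to 0.51 (without MOV mimic 5) in mimic muscles. The 4 low values, 3.68 to 7.16 CPM, were exactly those of the 4 libraries with the lowest GC index, and the other 16 lay between 9.62 and 21.2 CPM. Ppargc1b is GC-rich, with 57.8% G and C in its longest coding transcript, above 87.9% of genes. Of 16166 genes, 28 (0.173%) had all 4 of these libraries below the other 16. With the GC index as a covariate, the overload log2 fold change was -0.04 in control and -0.05 in mimic muscles, and without the 4 libraries it was 0.32 and 0.31.

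**Figure D3:**
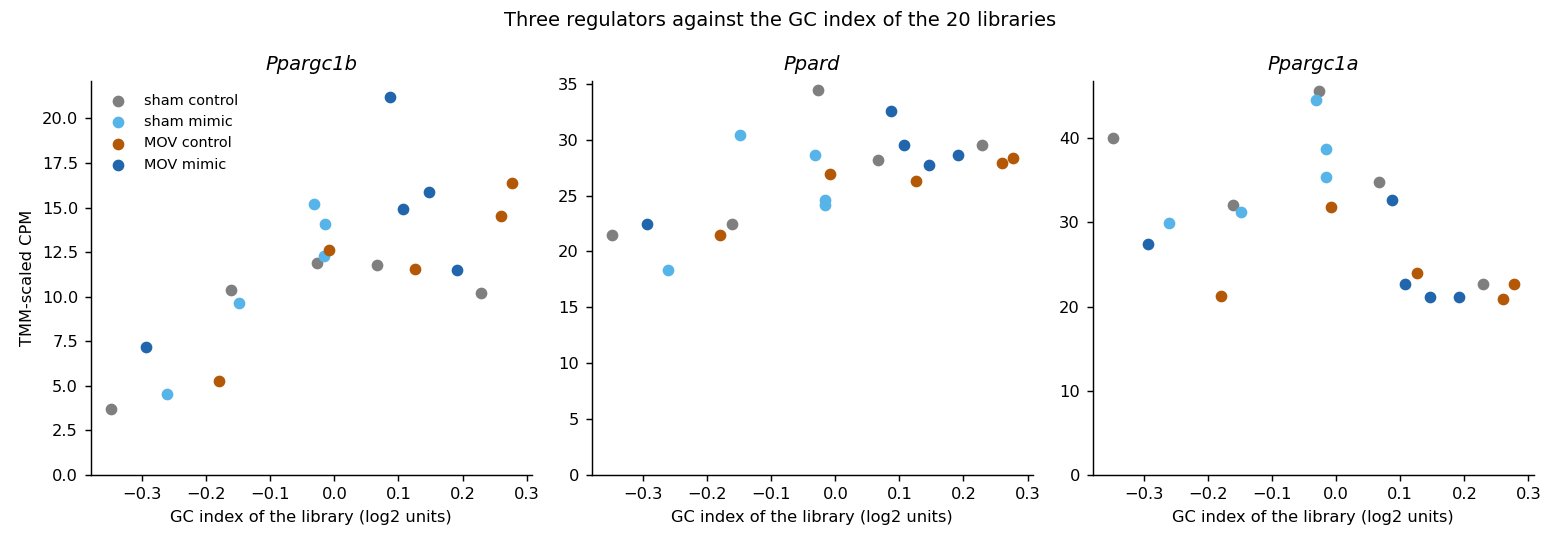
TMM-scaled CPM of Ppargc1b, Ppard and Ppargc1a (y axis, from 0) against the GC index of the library (x axis, log2 units), 1 point a library, colored by group. Ppargc1b was between 3.68 and 7.16 CPM in the 4 libraries of lowest index, 1 from each group, and between 9.62 and 21.2 CPM in the other 16, and Ppargc1a showed no such gap.

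Among the receptors, Esrra had the lowest adjusted p of the 10 in control muscles, which did not pass the threshold. Its levels in sham control were 147.0, 108.5, 96.3, 86.6 and 93.8 CPM, and in MOV control 82.5, 77.6, 87.9, 75.7 and 61.2 CPM. Of the MOV control libraries, 4 were below every sham control library, and replicate 3 overlapped only the lowest of them. Esrra's log2 fold change was -0.46 ± 0.16, with an adjusted p of 0.152 in edgeR and 0.07 in DESeq2, and an exact permutation p, not adjusted, of 0.0159. In mimic muscles the levels were 130.8, 81.5, 101.2, 86.4 and 76.1 CPM in sham and 85.4, 85.5, 78.2, 82.9 and 63.5 CPM in MOV. These overlapped more, and the log2 fold change was -0.26 ± 0.16 with an edgeR adjusted p of 0.499. Over all 22 alternatives it ran from -0.34 to -0.021 in mimic and from -0.53 to -0.26 in control muscles. The highest value of each sham group was its replicate 1, a library far out on the first principal component, and without the 3 libraries farthest out the log2 fold changes were -0.32 and -0.14. Esrra shares 73 bases of exon with other genes in the annotation used for lengths.

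Esrrb, an ERR better known from stem cells and the inner ear, was expressed at a low level and followed Esrra in control muscles. It had 13.9, 8.98, 8.29, 7.42 and 6.41 CPM in sham control and 5.75, 6.09, 6.44, 5.90 and 4.86 CPM in MOV control. The MOV control libraries were close together and 4 of them were below every sham control library. The log2 fold change was -0.62 ± 0.22, with an adjusted p of 0.163 in edgeR and 0.0796 in DESeq2, and an exact permutation p, not adjusted, of 0.0159. In mimic muscles it was -0.23 ± 0.27 at an edgeR adjusted p of 0.736, and the levels overlapped, from 6.54 to 11.7 CPM in sham and from 3.63 to 8.92 CPM in MOV. Without the 3 libraries farthest out the log2 fold changes were -0.42 and -0.18. The mimic value was -0.06 without MOV mimic 3, -0.10 without sham mimic 1 and -0.0018 when scaled by library totals only.

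Esrrg, the ERR abundant in oxidative fibers, pointed the other way with a wide spread. Its levels were 36.4, 79.7, 35.2, 58.7 and 30.7 CPM in MOV control, where replicates 2 and 4 stood above every sham control library (33.8 to 53.3 CPM) and replicate 5 below. In MOV mimic they were 41.7, 43.2, 36.0, 67.0 and 29.8 CPM against 36.2 to 60.3 CPM in sham mimic. Esrrg's log2 fold change was 0.22 ± 0.25 in control and 0.03 ± 0.21 in mimic muscles, with edgeR adjusted p values of 0.67 and 0.963. Without MOV control 2 the first was -0.04. Esrrg overlaps 3 lncRNA genes in RefSeq, and whether the counting used strand is not given in the sources used here.

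The PPARs divided between the abundant Ppard and the scarce Ppara and Pparg. Ppara, which drives fatty acid oxidation in liver and muscle, had 40 to 150 counts per library. Its lowest, median and highest levels were 3.19, 4.70 and 10.1 CPM in sham control and 2.93, 3.43 and 4.96 CPM in MOV control. In mimic muscles they were 4.75, 5.85 and 6.50 CPM in sham and 2.05, 3.88 and 7.15 CPM in MOV, where 4 of 5 MOV libraries were below every sham library and MOV mimic 4 was above. The log2 fold changes were -0.57 ± 0.31 and -0.42 ± 0.32, with edgeR adjusted p values of 0.351 and 0.592. Sham control 1 held the 10.1 CPM, and without it the value in control muscles was -0.24. In mimic muscles the value was -0.25 without MOV mimic 1, -0.69 without MOV mimic 4, -0.81 with limma voom and -0.20 when scaled by library totals only.

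Ppard, the PPAR most expressed in muscle, showed no difference beyond its spread. It lay between 21.5 and 34.4 CPM in sham control and between 21.4 and 28.4 CPM in MOV control. In mimic muscles it lay between 18.3 and 30.4 CPM in sham and between 22.5 and 32.6 CPM in MOV. The log2 fold changes were -0.05 ± 0.15 and 0.17 ± 0.15, with edgeR adjusted p values of 0.898 and 0.657. In mimic muscles the value was 0.07 (without sham mimic 3) to 0.25 (without sham mimic 4) with 1 library left out, and 0.05 with the GC index as a covariate to 0.39 by library totals over the other alternatives. Like Ppargc1b, it was lowest of its group in each of the 4 libraries of lowest GC index, and its longest coding transcript is 59.5% G and C. Esrra, the richest of the regulators at 61.8%, was lowest of its group in 2 of the 4 libraries, and Esrrg, at 42.5%, in 3 of the 4. The part of GC content in these values was not tested.

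Pparg, the receptor that directs fat cell differentiation, was the least counted of the 10. Its levels were 3.58, 3.06, 3.88, 2.57 and 5.58 CPM in sham control and 1.77, 1.70, 3.67, 2.54 and 2.57 CPM in MOV control. In sham mimic they were 2.28, 3.36, 3.05, 3.08 and 5.10 CPM. In MOV mimic they were 4.57, 1.83, 1.15, 0 and 2.47 CPM. The MOV values were mostly low, with 4 of 5 control and 3 of 5 mimic libraries under all sham libraries of the same virus. Of these, MOV control 4 and 5, at 2.539 and 2.572 CPM, were all but level with sham control 4 at 2.575 CPM. MOV mimic 4 had no count, which allows up to 0.221 CPM at 3 counts. The log2 fold changes were -0.60 ± 0.31 and -0.73 ± 0.71, with edgeR adjusted p values of 0.325 and 0.675. The second rests on single libraries, being -0.42 without MOV mimic 4 and -1.28 without MOV mimic 1. The summed level of 8 adipocyte markers, none of them at 0 in a group, was also lower in MOV, from 147.7 to 239.8 CPM in sham control against 101.7 to 190.2 CPM in MOV control. In mimic muscles that sum ran from 170.8 to 206.5 CPM in sham and from 115.4 to 154.8 CPM in MOV. The part of adipocytes in the Pparg values was not tested.

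Tfam and Nrf1 were close to level across surgery. Tfam lay between 39.3 and 60.9 CPM in sham control, 37.7 and 51.1 CPM in MOV control, 41.6 and 59.6 CPM in sham mimic and 33.0 and 64.0 CPM in MOV mimic. Its log2 fold change with overload was -0.11 ± 0.15 in control and -0.09 ± 0.17 in mimic muscles, with edgeR adjusted p values of 0.732 and 0.848. Nrf1 lay between 14.6 and 21.9 CPM in sham control, 9.79 and 19.5 CPM in MOV control, 10.5 and 16.9 CPM in sham mimic and 11.1 and 19.97 CPM in MOV mimic. Its log2 fold change was -0.16 ± 0.19 in control and -0.02 ± 0.20 in mimic muscles, with edgeR adjusted p values of 0.683 and 0.974. For both genes the estimates were smaller than their standard errors. With 1 library left out, Tfam ran from -0.19 to -0.029 in control and from -0.25 to -0.0033 in mimic muscles. Nrf1 ran from -0.26 to -0.04 in control and from -0.16 to 0.057 in mimic muscles. Scaling by library totals alone moved the median log2 fold change of all genes from 0.04 to 0.20 in control and from 0.02 to 0.22 in mimic muscles. Under it the signs of both genes turned, with Tfam at 0.05 and 0.12 and Nrf1 at 0.03 and 0.19, all still below the median of all genes.

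The next comparisons asked what the miR-1a-3p mimic did to the regulators. In MOV mimic against MOV control none of the 10 was called by edgeR (0% of 15220 genes), DESeq2 or limma voom, and none was past an unadjusted p of 0.05, beside 4.21% of all genes. Estimates ran from -0.27 ± 0.74 for Pparg to 0.31 ± 0.27 for Esrrb, with a median of 0.05. Ppargc1a stood at 0.06 ± 0.18, Ppargc1b at 0.23 ± 0.31 and Esrra at 0.05 ± 0.14. Esrrb was higher than every MOV control library in 4 of 5 MOV mimic libraries (7.13, 7.77, 8.92 and 8.43 CPM) and lower than all of them in replicate 3 (3.63 CPM). Values under the alternatives were drawn here for these 5 regulators and not for the other 5. The signs of Ppargc1a, Esrra and Pparg turned when single libraries were left out, and Pparg was 0.05 without MOV mimic 4. Ppargc1b was 0.038 without MOV control 5 and 0.39 without MOV mimic 5. Esrrb was 0.23 to 0.48 with 1 library left out and 0.096 to 0.35 over the other alternatives.

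In sham mimic against sham control none of the 10 was called by edgeR (0% of 14746 genes), DESeq2 or limma voom, and none was past an unadjusted p of 0.05, beside 1.72% of all genes. Estimates ran from -0.26 ± 0.16 for Nrf1 to 0.21 ± 0.35 for Ppargc1b, and Ppargc1a stood at 0.04 ± 0.17. With 1 library left out, Nrf1 was -0.32 to -0.16, and Ppargc1b was 0.0035 (without sham control 5) to 0.42 (without sham mimic 3). Nrf1 was below every sham control library in 2 of 5 sham mimic libraries. The interaction, which asks whether the mimic acted differently in MOV and sham muscles, was called for none of the 10 by any of the 3 tools (edgeR 0% of 16166 genes), with none past an unadjusted p of 0.05 beside 2.64% of all genes. Its estimates ran from -0.19 ± 0.35 for Esrrg to 0.38 ± 0.35 for Esrrb, and Ppargc1a was at 0.01 ± 0.25. The Esrrb value was 0.20 to 0.55 with 1 library left out and 0.072 to 0.42 over the other alternatives. Values under the alternatives were drawn only for Esrrg, Esrrb and Ppargc1a in the interaction. In sham muscles they were drawn only for Nrf1, Ppargc1b and Ppargc1a. Standard errors in these 3 comparisons ran from 0.14 to 0.78 on the log2 scale, and differences within them were not detectable. The comparisons share groups, so their estimates are not independent.

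**Figure D4:**
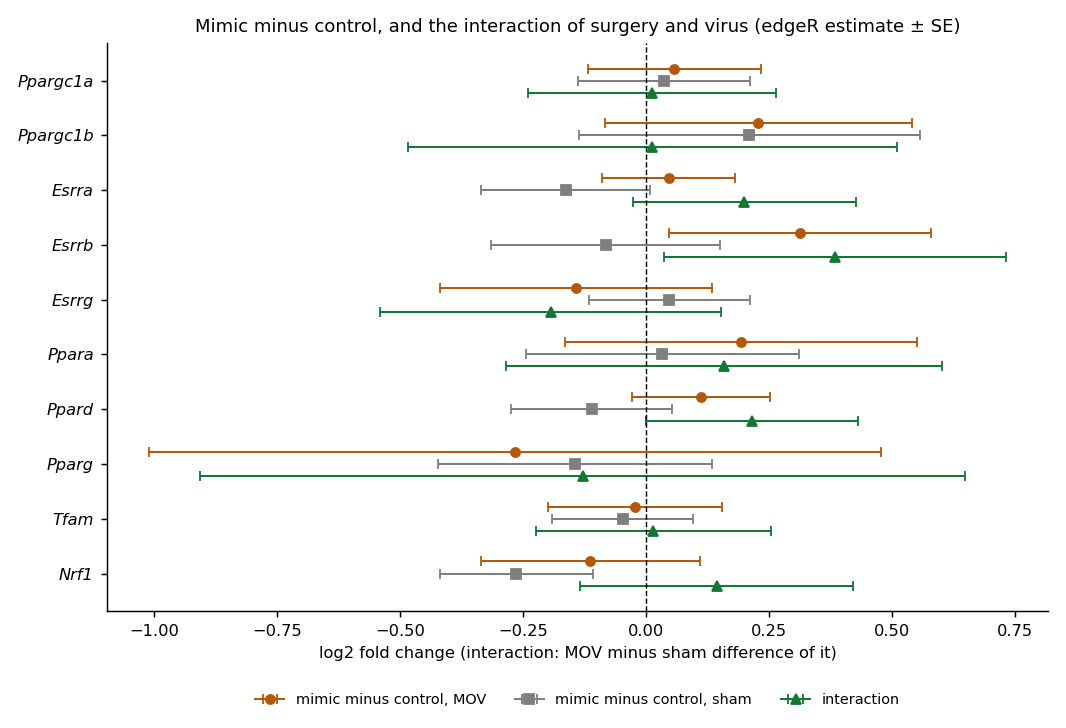
Log2 fold change of each regulator, mimic minus control, in MOV muscles (circles) and sham muscles (squares), and the interaction, which is the first less the second (triangles). Bars are standard errors from edgeR. The estimates lay on both sides of 0, from -0.27 (Pparg) to 0.31 (Esrrb) in MOV muscles.

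The wider pathway was followed in 4 lists, all of whose genes were matched except Atp5f1b, listed also under its older symbol Atp5b. The first holds genes that PGC-1 and the ERRs are known to activate. They are mainly genes of oxidative metabolism, with others such as Vegfa, Fndc5, Slc2a4, Mfn2 and Sod2. By edgeR none of the 24 was called in either overload comparison, but 20 were lower at an unadjusted p under 0.05 in control muscles, beside 9.15% of all genes, and 19 in mimic muscles, beside 6.08%. DESeq2 called 14 of the 24 lower in control and 7 in mimic muscles, and none higher, beside 3.48% and 0.637% of all genes called lower. The median log2 fold change was -0.61 in control and -0.46 in mimic muscles, and 23 and 24 of the 24 were below 0. In CPM, 11 of the 24 had every MOV library below every sham library in control muscles, beside 2.45% of all genes, and 11 did in mimic muscles, beside 1.74%. Without the 3 libraries farthest out, 15 were lower at an unadjusted p under 0.05 in each comparison, beside 6.37% of all genes in control and 3.37% in mimic muscles, with medians of -0.45 and -0.39. Across all 22 alternatives the median stayed between -0.67 and -0.42 in control and between -0.56 and -0.25 in mimic muscles, with 14 to 22 and 11 to 21 genes lower at an unadjusted p under 0.05. The 11 came from scaling by library totals only.

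The list genes named here are those with the largest differences among DESeq2's calls in control muscles whose groups did not overlap, chosen after their values were seen because edgeR called none. Ckmt2, the mitochondrial creatine kinase of striated muscle, was between 979.6 and 2133 CPM in sham control and between 506.9 and 820.7 CPM in MOV control. Its log2 fold change was -1.10 ± 0.23 in edgeR, with an adjusted p of 0.0554 in edgeR and 2.29e-04 in DESeq2. In mimic muscles it was -0.90 ± 0.18 with adjusted p values of 0.213 and 4.65e-04, again without overlap. Cox7a1, the muscle and heart form of a cytochrome c oxidase subunit, was between 142.7 and 329.5 CPM in sham control and between 86.1 and 133.2 CPM in MOV control, at a log2 fold change of -1.02 ± 0.23 and adjusted p values of 0.063 and 0.00198. In mimic muscles its groups overlapped, at -0.44 ± 0.15. The summed muscle fiber markers, whose list shares Mb with these targets, had medians of 157456 CPM in sham control and 130780 CPM in MOV control, and of 165523 and 130766 CPM with the mimic. The 6 markers of satellite cells and regenerating fibers had summed medians of 194.3 and 733.4 CPM in sham control and MOV control, and of 219.6 and 552.8 CPM with the mimic, in overlapping ranges. For 6 fibroblast markers these medians were 6718 and 9096 CPM, and 7371 and 6694 CPM. No marker of these 3 lists was at 0 in a group, and the part of these cells in the list's values was not tested.

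The PPAR targets are mainly genes of fatty acid uptake and oxidation, with others such as Pdk4, Ucp2, Ucp3, Plin2, Plin5 and Angptl4. None of 25 was called by edgeR. At an unadjusted p under 0.05, 13 were lower in control muscles, beside 9.15% of all genes, and 10 in mimic muscles, beside 6.08%. In the other direction 1 was past that line, in mimic muscles: Ucp2, a mitochondrial uncoupling protein, at 0.78 ± 0.30 with an edgeR adjusted p of 0.316, named after its value was seen. DESeq2 called 7 lower in control and 2 in mimic muscles, beside 3.48% and 0.637% of all genes, and none higher. With a block for the replicate number, which here joins muscles of different mice, it called 5 and 0. In edgeR the medians were -0.44 and -0.43, with 23 and 24 of 25 below 0. Without the 3 libraries farthest out, 9 and 5 were lower at an unadjusted p under 0.05, beside 6.37% and 3.37% of all genes in those fits, with medians of -0.34 and -0.32. Across all 22 alternatives these counts were 9 to 15 in control and 5 to 12 in mimic muscles, and the medians -0.59 to -0.26 and -0.60 to -0.22, with -0.26 and -0.22 by library totals only. Lpl, the lipoprotein lipase, was between 407.7 and 1154 CPM in sham control and between 176.8 and 389.9 CPM in MOV control, at -1.41 ± 0.30 with adjusted p values of 0.0557 in edgeR and 3.27e-04 in DESeq2. Cd36, the fatty acid transporter, was between 164.8 and 342.2 CPM in sham control and between 82.9 and 148.2 CPM in MOV control, at -1.16 ± 0.23 with adjusted p values of 0.0554 and 3.36e-04. With the mimic they were at -0.75 ± 0.28 and -0.84 ± 0.22, with overlapping groups, and DESeq2's adjusted p values were 0.136 and 0.023. Both genes are also expressed in endothelial cells or fat. The summed endothelial markers had medians of 302.2 CPM in sham control and 222.0 CPM in MOV control, and of 326.1 and 224.0 CPM with the mimic, and the part of those cells in the values was not tested.

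Coregulators and partners of PGC-1 lay on both sides of 0. Of 30, 17 were below 0 in control and 20 in mimic muscles, with medians of -0.09 and -0.10, and edgeR called none. Scaled by library totals only, 10 and 9 were below 0 and the medians turned to 0.08 and 0.11. Without the 3 libraries farthest out, 15 were below 0 in each comparison and the medians were -0.017 and -0.0087. At an unadjusted p under 0.05, 5 were lower in control muscles, beside 9.15% of all genes, and 4 in mimic muscles, beside 6.08%, while 2 and 1 were higher. With no overlap in CPM, 3 were lower in control muscles, beside 2.45% of all genes, and 3 in mimic muscles, beside 1.74%. Pprc1, named after its value was seen, also had no overlap in mimic muscles but was higher in MOV. It was between 26.8 and 30.3 CPM in MOV and between 16.7 and 26.3 CPM in sham. Its log2 fold change was 0.39 ± 0.14 at an edgeR adjusted p of 0.297. In control muscles its groups overlapped, at 0.47 ± 0.19 with an edgeR adjusted p of 0.219. DESeq2 called 2 lower in control muscles, Perm1 and Lpin1, and 1 in mimic muscles, Perm1, beside 3.48% and 0.637% of all genes called lower, and none higher. Perm1, a muscle regulator induced by PGC-1 and ERR, was between 217.9 and 473.1 CPM in sham control and between 74.2 and 174.8 CPM in MOV control, at -1.12 ± 0.26 with adjusted p values of 0.063 in edgeR and 0.00128 in DESeq2. With the mimic it was at -0.68 ± 0.19, with adjusted p values of 0.272 and 0.0389, and its groups overlapped, from 153.9 to 228.8 CPM in MOV and from 227.2 to 431.5 CPM in sham. With the replicate block, which here joins muscles of different mice, DESeq2 called 0 of the 30 in mimic muscles, Perm1 included. Lpin1, a lipid phosphatase that also coactivates PPARα, was between 119.9 and 301.2 CPM in sham control and between 86.0 and 107.3 CPM in MOV control, at -0.92 ± 0.21 with adjusted p values of 0.063 and 0.00209. With the mimic Lpin1 overlapped between groups, at -0.52 ± 0.30. The genes of mitochondrial DNA maintenance and transcription, the process Tfam serves, had medians of -0.10 and -0.13 over 21 genes, and neither edgeR nor DESeq2 called any, with 2 and 1 past an unadjusted p of 0.05 in either direction, beside 18.2% and 13.4% of all genes. Scaled by library totals only, the medians turned to 0.07 and 0.08, and in control muscles the median was 0.0093 without the 3 libraries farthest out and 0.0020 with the GC index as a covariate.

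**Figure D5:**
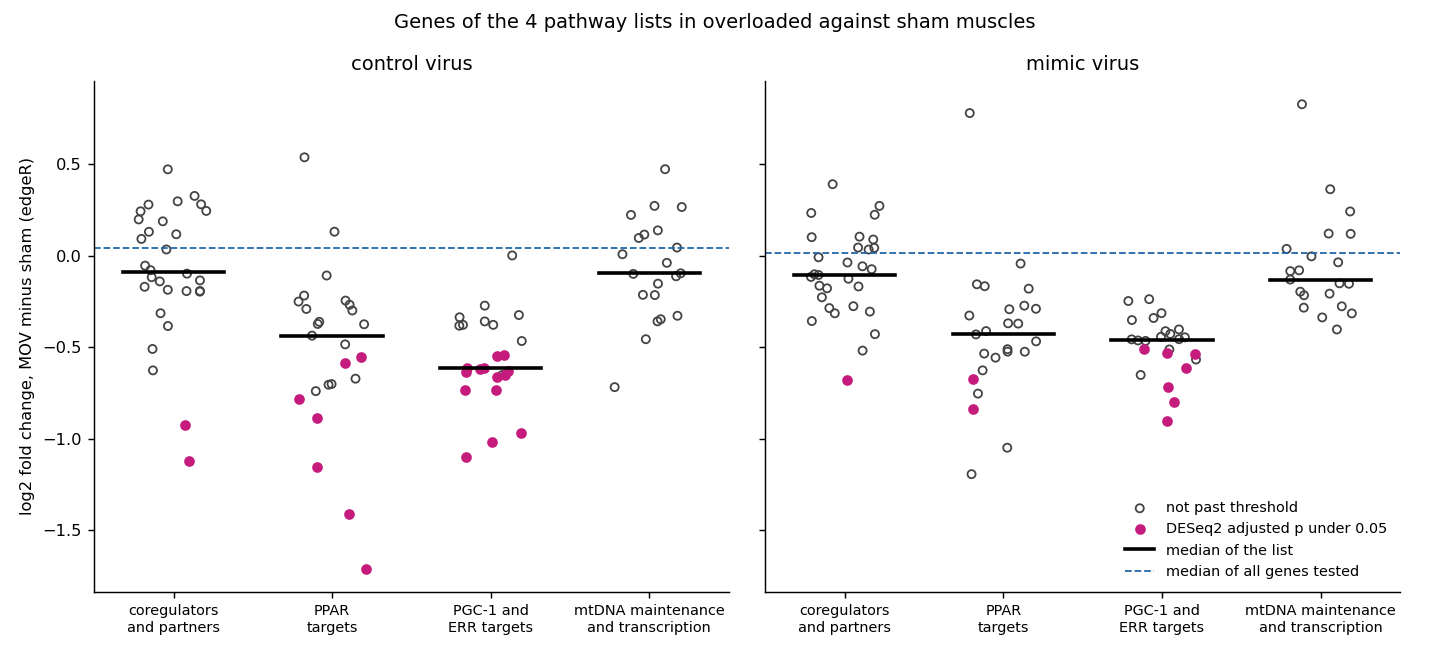
Log2 fold change, MOV minus sham, of every gene in the 4 lists with the control virus (left) and the mimic virus (right). Filled points passed DESeq2's adjusted p of 0.05, thick lines are list medians and the dashed line is the median of all genes tested. The PGC-1 and ERR targets had medians of -0.61 and -0.46, whereas coregulators and mitochondrial DNA genes centered near -0.1.

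With the mimic, none of the genes in the 4 lists was called by edgeR or DESeq2 in either surgery group or in the interaction. The median log2 fold change of the PGC-1 and ERR targets was -0.02 in MOV mimic against MOV control and -0.06 in sham mimic against sham control, and that of the PPAR targets 0.12 and -0.09. Unadjusted p values under 0.05 were found for 1 PGC-1 and ERR target and 1 PPAR target in sham muscles, beside 1.72% of all genes, and for none of either in MOV muscles, beside 4.21%. In sham muscles 22 of 24 PGC-1 and ERR targets and 21 of 25 PPAR targets were below 0, beside 49.8% of all genes. In MOV muscles 13 of 24 and 10 of 24 were, beside 50.7%. The lists' values under the alternatives were not drawn in these comparisons.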

How the data were processed

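The authors trimmed reads with Cutadapt and Trim Galore, aligned them to GRCm38 with HISAT2 and counted them per Ensembl gene with featureCounts, and deposited raw counts, unnormalized, in 2 tables. The annotation release, strand setting and handling of multiply aligned reads are not given in the sources used here. The submitters' processing notes give Cutadapt 4.4, Trim Galore 0.6.10, HISAT2 2.0.5 and featureCounts 1.5.0-p3. Symbols were found for 32640 of 54532 genes, and coordinates and promoter windows are from RefSeq.

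Groups were compared with edgeR 4.0.16 (TMM, filterByExpr, quasi-likelihood test, two-sided, Benjamini-Hochberg over all genes tested, threshold 0.05), on the 10 libraries compared or on all 20 for the interaction. DESeq2 1.42.0 and limma 3.58.1 with voom were alternatives, with the others given below. DESeq2 was the tool of the study's methods. Scripts were tested on simulated data. The regulators and lists were chosen with earlier results of these data known, so no p was adjusted over them alone and no list was tested as a set. All 10 regulators are named. From each list the rule took the 2 largest rises and falls among called genes without overlap. SEs are on the log2 scale. Libraries are from separate muscles, and p-values measure the spread between them. No library was a copy of another in its group (chi-square per gene 12.7 to 154 over 40 pairs). A count of 0 was given a floor of 3 counts, for counting error only. The GC content is that of the longest coding transcript in GENCODE vM1.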

Additional observations from a re-analysis of the deposited data

Results flagged for a closer look

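A library was marked when its gap to the nearest of the other 4 libraries of its group was over 0.71 of the group's range (Dixon's 95% value for 5). Of 40 groups examined, 4 were marked, and chance marks about 1 in 20. Ppargc1a was highest in MOV control 2, at 31.8 CPM. Ppargc1b was lowest in sham control 5, at 3.68 CPM, and this library had the lowest GC index of the 20. Esrrg was highest in sham mimic 2, at 60.3 CPM. Ppara was highest in sham control 1, at 10.1 CPM, and this library was among the 3 farthest out on the first principal component.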

How the results depend on the processing

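None of the 10 regulators was called in any of the 124 fits. Of 709 log2 fold changes of regulators under an alternative, 660 kept their sign and 49 turned, in 15 of 31 results. With the GC index as a covariate, Ppargc1b turned to -0.037 in control and -0.051 in mimic muscles with overload, Tfam to 0.0066 in control muscles and Esrrg to -0.15 in mimic muscles. Scaled by library totals only, Ppard turned to 0.12, Tfam to 0.054 and Nrf1 to 0.034 in control muscles, and Tfam to 0.12 and Nrf1 to 0.19 in mimic muscles. Ppard in control muscles was 0.065 with limma voom and 0.048 without the 3 libraries farthest out. Esrrg in mimic muscles was -0.0095 without the filter, -0.00122 with at least 10 counts in total and -0.19 without the 3 libraries farthest out, and Nrf1 there was 0.033 without the 4 libraries of lowest GC index. For the mimic in MOV muscles, Ppargc1a turned to -0.089 with limma voom, -0.023 without the 4 libraries of lowest GC index and -0.052 without the 3 farthest out, where Pparg was 0.050. The interaction of Ppargc1a was -0.13 with limma voom, -0.013 with the replicate block in edgeR, -0.18 without the 4 libraries of lowest GC index, -0.10 without the 3 farthest out and -0.00504 with the GC covariate. The cause was not tested.

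With 1 library left out, overload in control muscles gave Esrrg -0.036 to 0.35 and Ppard -0.12 to 0.048, and overload in mimic muscles Esrrg -0.17 to 0.18 and Nrf1 -0.16 to 0.057. The mimic in MOV muscles gave Ppargc1a -0.052 to 0.18, Esrra -0.028 to 0.11 and Pparg -0.80 to 0.050, and in sham muscles Ppargc1a -0.076 to 0.14. The interaction gave Ppargc1a -0.085 to 0.14 and Esrrg -0.39 to 0.059.

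The count of all genes called moved much more. For overload in control muscles (1 gene by edgeR) it was 913 with DESeq2, 294 with limma voom, 0 with library totals only, 388 without the filter, 163 with at least 10 counts in total, 36 with all 20 libraries, 12 without the 4 libraries of lowest GC index and 0 with the GC covariate, and 0 to 426 with 1 library left out (426 without sham control 3, 318 without MOV control 5 and 6 without MOV control 3). For overload in mimic muscles (0) it was 221, 2 with limma voom, 1 without the filter, 3 with all 20 libraries, 36 without the 4 libraries, and 0 to 101 with 1 left out (101 without MOV mimic 5). For the mimic in MOV muscles (0) it was 3 with DESeq2 and 1 with all 20 libraries, and for the interaction (0) 1 with DESeq2. Of the PGC-1 and ERR targets, overload in control muscles gave 14 called with DESeq2, 3 with limma voom, 3 without the filter, 3 with at least 10 counts, 3 with all 20 libraries and 0 to 4 with 1 left out, and overload in mimic muscles 7 with DESeq2 and 0 to 1. Of the PPAR targets, control muscles gave 7, 4, 5, 2, 1 and 0 to 5 in the same order, and mimic muscles 2 with DESeq2 and 0 to 1. Of the coregulators, control muscles gave 2, 2, 2, 2, 1 and 0 to 2, and mimic muscles 1 with DESeq2.

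Deviations of equal-numbered control and mimic libraries correlated between 0.01 and 0.66 in sham (4 of 5 pairs over 0.1) and between 0.03 and 0.32 in MOV (3 of 5), and 5 of 10 and 8 of 10 libraries correlated best with their own number. All 10 correlations were above 0, but 3 pairs were not over 0.1 and the labels do not tie a number to a mouse, so the block stands as an alternative and whether equal numbers mark 1 mouse is not known here. With the replicate block, DESeq2 called 722 genes for overload in control muscles and 116 in mimic muscles. It called 127 for the mimic in MOV muscles and 5 for the interaction. The overload calls held 9 and 4 PGC-1 and ERR targets, 5 and 0 PPAR targets, and 2 and 0 coregulators. In the overload comparisons the block joins sham and MOV libraries of equal number, which are from different mice. There it is not a pairing of muscles. In edgeR the block gave 1, 0, 0, 0 and 0 genes over the 5 comparisons, and it called no regulator in either tool. At 12036360 to 23056525 counts per library, Pparg, Ppara and Esrrb had at most 89, 150 and 231 counts, and differences within their standard errors were not detectable.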
